A study of Homo sapiens with 6 samples.

Results

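Goblet cells are the mucus-secreting cells of the gut epithelium. These cells assemble heavily O-glycosylated mucins in the endoplasmic reticulum and Golgi apparatus and release them with accessory proteins such as trefoil factors and the IgG-Fc binding protein, and goblet-type products also appear in pancreatic and gastric neoplasia. The genes described here are 7 genes of this programme, SPINK4, HEPACAM2, B3GNT6, TFF3, FCGBP, MUC4 and CREB3L1. They were chosen by symbol from the 753 genes of the authors' deposited table, and all 7 were found.

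The libraries were made from AsPC-1, an established human pancreatic cancer cell line. In the shTMPRSS4 group, 3 samples received a lentivirus carrying a short hairpin RNA against TMPRSS4, a transmembrane serine protease, and in the control group 3 samples received a control lentivirus. The labels name no hairpin sequence and no second hairpin, and they do not say whether the replicates were separate cultures, so spreads between libraries may be technical. TMPRSS4 itself was not analysed here, and the name of the shTMPRSS4 group follows the labels alone.

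Depth recovered from the ratio of count to FPKM (a read level per gene length and depth) was 46800000 to 53300000 reads in shTMPRSS4 libraries and 30200000 to 57200000 reads in control libraries. The table itself was selected on these libraries: every gene in it has an authors' log2 fold change of 1 or more in size and a false discovery rate (FDR) no larger than 0.0490. The 7 genes were chosen with results of these libraries known, so their differences between the groups are given as a description and carry no test. Control replicate 3 alone bears the code L3 in the labels, where the other 5 libraries bear L4.

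All 7 genes were higher in shTMPRSS4 libraries at the recovered depth, though scaling on the listed genes themselves by TMM (trimmed mean of M-values) left MUC4 at -0.06 and CREB3L1 at 0.01 (log2). The listed genes were selected and 73.7% of them were higher, so TMM scaling on them moved their median by -1.19 (log2). Values near 0 under that scaling, here and below, therefore do not decide whether a gene differed. The 7 genes fell into 3 kinds by their levels in control and shTMPRSS4 libraries. SPINK4, HEPACAM2 and B3GNT6 were near the detection limit in control libraries and at 7.38 to 31.4 FPKM in shTMPRSS4 libraries. TFF3, FCGBP and CREB3L1 were already expressed in control cells and were 11.4-fold, 4.10-fold and 2.27-fold higher at that depth. Under TMM scaling the log2 fold changes were smaller, 2.28 for TFF3 and 0.87 for FCGBP. MUC4 stayed under 0.2 FPKM in all 6 libraries. No FPKM value of a control library reached the lowest shTMPRSS4 value for any of the 7, and the same held for 72.8% of the 753 listed genes, so nothing is read from that count. In the authors' deposited table the log2 fold change had a median of 3.45 over the 7 genes, beside 1.62 over the 555 higher genes. Over all 753 listed genes, lower ones included, the median was 1.33.

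**Figure D1:**
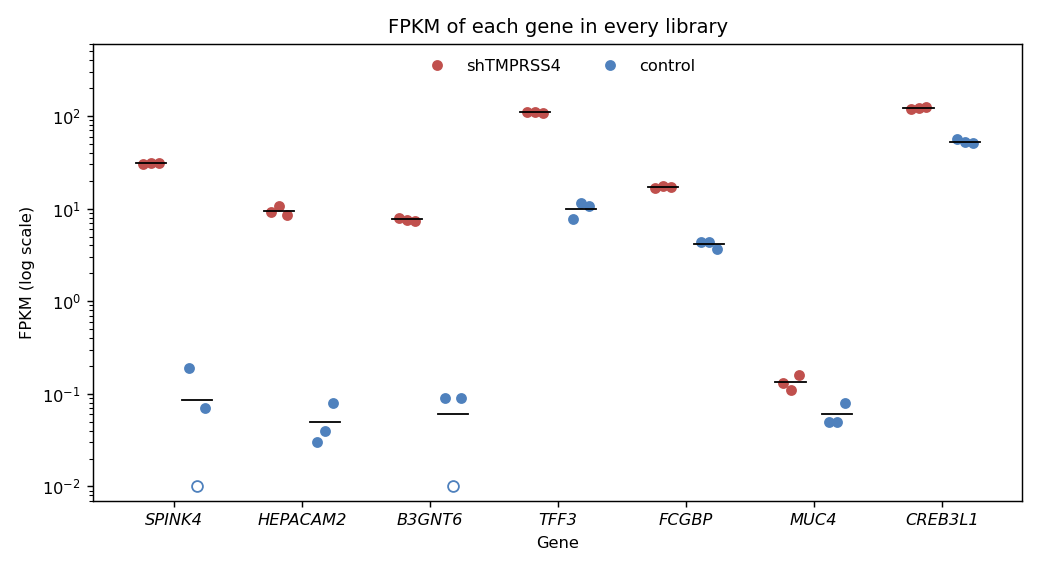
FPKM (log scale) of the 7 genes in each shTMPRSS4 (red) and control (blue) library, with bars at group means. Open circles drawn at 0.01 stand for libraries listed at 0. SPINK4, HEPACAM2 and B3GNT6 lie at or under 0.19 FPKM in every control library, and MUC4 stays under 0.2 FPKM in both groups.

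RefSeq promoter sequences (GRCh38.p14) were matched for 5 of the 7 genes with 6 start sites, SPINK4, HEPACAM2 (with 2 starts), FCGBP, MUC4 and CREB3L1. B3GNT6 and TFF3 are named only. The 250 bases before the start are printed for SPINK4 and HEPACAM2, the pair of matched genes with the widest gap between the groups. Capitals mark matches, on either strand, to 4 motifs. CAGATG is an E-box form bound by basic helix-loop-helix factors such as ATOH1 and NEUROG3, and a further E-box form of that class is CAGCTG. The others are TGGGAA (the core bound by RBPJ, the DNA-binding partner of Notch) and TATAAA (a core promoter element). The SPINK4 sequence is chr9:33239917-33240166 on the plus strand, and the HEPACAM2 sequences are chr7:93232199-93232448 and chr7:93219572-93219821 on the minus strand.
SPINK4: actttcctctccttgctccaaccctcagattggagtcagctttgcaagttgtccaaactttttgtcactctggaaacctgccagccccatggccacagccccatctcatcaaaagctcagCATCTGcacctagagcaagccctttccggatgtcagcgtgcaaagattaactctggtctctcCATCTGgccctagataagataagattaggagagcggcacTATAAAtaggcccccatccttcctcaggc
HEPACAM2 upstream start: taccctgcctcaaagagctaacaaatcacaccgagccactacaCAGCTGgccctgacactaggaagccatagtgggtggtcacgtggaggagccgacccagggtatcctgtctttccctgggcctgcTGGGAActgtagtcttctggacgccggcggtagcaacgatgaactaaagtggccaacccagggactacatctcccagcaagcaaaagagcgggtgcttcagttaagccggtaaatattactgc
HEPACAM2 downstream start: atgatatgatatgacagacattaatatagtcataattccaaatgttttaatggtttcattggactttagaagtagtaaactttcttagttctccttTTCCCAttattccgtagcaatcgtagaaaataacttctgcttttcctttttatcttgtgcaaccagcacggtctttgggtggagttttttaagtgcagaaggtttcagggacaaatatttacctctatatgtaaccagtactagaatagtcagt

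SPINK4 held CAGATG on the other strand at 2 places, beginning 130 and 68 bases before the start, and TATAAA 29 bases before it. The upstream start of HEPACAM2 held CAGCTG 207 bases before it and TGGGAA 123 bases before it. In windows of 300 bases (250 before to 50 after the start) over 35116 RefSeq starts, CAGATG occurred in 14.7%, CAGCTG in 17.9%, TGGGAA in 24.0% and TATAAA in 11.5%. Among the 6 starts here CAGATG and TATAAA each occurred in 1, CAGCTG in 2 and TGGGAA in 3. The 3 with TGGGAA were both starts of HEPACAM2 and that of MUC4, so these starts are not separate genes. The CAGCTG of CREB3L1 lay after its start. The forkhead forms TGTTTAC (3.42% of all starts) and TGTTTGC (3.89%), and TGACGT (7.98%), the core bound by the CREB3 family, occurred in none of the 6 windows. The matches describe letters in these windows only, and no 2 of them shared a base. Of the printed windows, the upstream one of HEPACAM2 lies beyond the GENCODE gene given below, and the others lie inside their genes. Which starts these cells use was not tested.

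Among the secreted products, SPINK4 (ENSG00000122711, chromosome 9, 33218365 to 33248567 in GENCODE release 29 on GRCh38, plus strand) encodes a small secreted Kazal-type protein, a family of serine peptidase inhibitors, and is typical of intestinal goblet cells. It had 30.0, 31.3 and 31.4 FPKM in shTMPRSS4 replicates 1, 2 and 3, from 749, 737 and 687 reads, against 0.19, 0 and 0.07 FPKM in control replicates 1, 2 and 3, from 5, 0 and 1 reads. The shTMPRSS4 values had a coefficient of variation of 2.48%, and every one was at least 158-fold above the highest control value. The count of 0 in control replicate 2 allows a level of up to 0.172 FPKM (3 counts), so the control libraries cannot be ranked. Over summed counts scaled by depth, SPINK4 was 299.9-fold higher, with a 95% counting interval (exact, Clopper-Pearson on the split of counts) of 138 to 818. Such intervals cover counting error only, and here the 6 control reads set the width. The log2 fold change was 8.64 ± 0.93 (SE), 7.78 without control replicate 2 and 9.37 without control replicate 1. The gene spans part of BAG1 on the opposite strand without sharing exon bases, and no strand-marking step is described, so unspliced reads of the pair cannot be told apart. In bulk libraries, more cells with SPINK4 RNA and more RNA per cell cannot be told apart, which holds for each gene below.

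TFF3 (ENSG00000160180, chromosome 21, 42311667 to 42315651, minus strand) encodes a trefoil peptide that goblet cells secrete with mucus and that takes part in mucosal repair. It had 109.6, 111 and 109 FPKM in the shTMPRSS4 libraries, against 7.81, 11.5 and 10.8 FPKM in control libraries. The 3 shTMPRSS4 values were nearly equal (coefficient of variation 0.933%), while the control values varied by 19.4%, with replicate 1 the lowest. The means were 109.9 ± 1.02 and 10.0 ± 1.95 FPKM (SD, n = 3 each), a log2 fold change of 3.47 ± 0.17 (SE). TFF3 ranked 14th among the 753 listed genes by FPKM in shTMPRSS4 libraries and 107th in control libraries.

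FCGBP (ENSG00000275395, chromosome 19, 39863323 to 39934626, minus strand) encodes a large secreted protein with von Willebrand factor D domains that is found in intestinal mucus. It had 16.9, 17.6 and 17.0 FPKM in shTMPRSS4 libraries, against 4.38, 4.31 and 3.68 FPKM in control libraries. The groups were far apart, and the lowest value was that of control replicate 3. The log2 fold change was 2.06 ± 0.08, and it came to 0.87 under TMM scaling and 1.34 under upper-quartile scaling on the listed genes. The annotation tags this locus as fragmented with a reference genome error, so its FPKM scale is less certain than that of the other genes.

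Among the genes of mucin assembly, B3GNT6 (ENSG00000198488, chromosome 11, 77034398 to 77041973, plus strand) encodes the core 3 synthase, which adds N-acetylglucosamine to the first sugar of mucin O-glycans. It had 7.95, 7.58 and 7.38 FPKM in shTMPRSS4 libraries, from 651, 587 and 530 reads, against 0.09, 0 and 0.09 FPKM in control libraries, from 8, 0 and 4 reads. All shTMPRSS4 values were close together (coefficient of variation 3.79%), and the lowest was 82.0-fold above the highest control value. The pooled fold was 122, with a counting interval of 69.7 to 237. The log2 fold change was 7.57 ± 1.25 over all libraries and 6.32 without control replicate 2, the library with no read, against 8.21 without control replicate 1 and 8.18 without control replicate 3. Of the 31-base words of its annotated transcripts 6.60% occur in other genes, against at most 2.41% for any other of the 7.

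CREB3L1 (ENSG00000157613, chromosome 11, 46277661 to 46321422, plus strand) encodes a transcription factor that is held in the endoplasmic reticulum membrane until it is cleaved, and in mouse colon it is needed for the last steps of goblet cell maturation. It had 119, 121.6 and 124 FPKM in shTMPRSS4 libraries, against 56.2, 51.9 and 50.7 FPKM in control libraries. It was the most abundant of the 7 genes in every library, and the groups did not overlap. The means were 121.6 ± 2.56 and 53.0 ± 2.88 FPKM (SD, n = 3 each), a log2 fold change of 1.20 ± 0.05. That fold lies under the median of the 555 higher genes in the authors' deposited table, 1.62. It came to 0.01 under TMM scaling, 0.03 with DESeq2 size factors and 0.48 under upper-quartile scaling, all on the listed genes. TMM and DESeq2 size factors moved the median of these selected genes by -1.19 and -1.17, so a fold near the cut comes near 0. These values do not decide whether CREB3L1 differed, and its size rests on the recovered depth. Of 15 secretory pathway genes of the type this factor is known to act on, such as SEC23A and SEC24D, none was among the listed genes, and they were not analysed here.

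The membrane proteins were HEPACAM2 and MUC4. HEPACAM2 (ENSG00000188175, chromosome 7, 93188586 to 93226524, minus strand) encodes an immunoglobulin superfamily protein that is known from intestinal secretory cells. It had 9.31, 10.7 and 8.52 FPKM in shTMPRSS4 libraries, from 1018, 1108 and 817 reads, against 0.03, 0.04 and 0.08 FPKM in control libraries, from 3, 3 and 5 reads. Its shTMPRSS4 values varied by 11.7%, the widest spread in that group among the 6 genes other than MUC4, with replicate 2 the highest. The pooled fold was 222, with a counting interval of 124 to 444.

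MUC4 (ENSG00000145113, chromosome 3, 195746765 to 195812277, minus strand) encodes a transmembrane mucin that binds the receptor ERBB2 and is known for its expression in pancreatic carcinoma. It had 0.13, 0.11 and 0.16 FPKM in shTMPRSS4 libraries, from 69, 55 and 77 reads, against 0.05, 0.05 and 0.08 FPKM in control libraries, from 27, 21 and 25 reads. The nearest values, shTMPRSS4 replicate 2 and control replicate 3, differed by 1.38-fold. The pooled fold was 2.28, with a counting interval of 1.74 to 3.02. The log2 fold change of 1.12 ± 0.29 was 1.34 without control replicate 3 and 0.94 without control replicate 1, and it came to -0.06 under TMM scaling and 0.40 under upper-quartile scaling on the listed genes. In the authors' deposited table its FDR was 0.0339, the highest of the 7 and near the largest value listed, 0.0490.

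**Figure D2:**
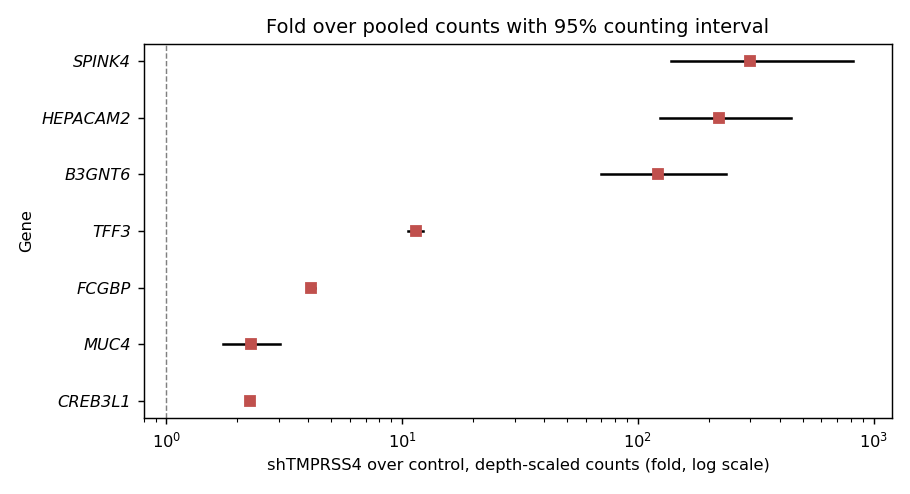
Fold of shTMPRSS4 over control (log scale) from depth-scaled counts summed over 3 libraries per group, with lines for the 95% counting interval. The intervals of SPINK4 (138 to 818), HEPACAM2 (124 to 444) and B3GNT6 (69.7 to 237) overlap one another and lie above that of TFF3 (10.6 to 12.3). They cover counting error only and leave out the spread between libraries.

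The order of levels differed between the groups. FPKM is per length and was used here to set genes side by side, with gene lengths implied by the authors' values that ran from 468 bases for SPINK4 to 9950 bases for MUC4. In shTMPRSS4 libraries the order was CREB3L1, TFF3, SPINK4, FCGBP, HEPACAM2, B3GNT6 and MUC4, and the ranges of neighbours in that order did not overlap. In control libraries CREB3L1 was followed by TFF3 and FCGBP, again with separate ranges. The other 4 genes, SPINK4, HEPACAM2, B3GNT6 and MUC4, overlapped between 0 and 0.19 FPKM and have no order there.

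Ratios of genes within a library do not depend on how libraries are scaled. TFF3 stood at 0.921, 0.913 and 0.878 of the FPKM of CREB3L1 in shTMPRSS4 libraries, against 0.139, 0.221 and 0.213 in control libraries. SPINK4 was at 1.78, 1.78 and 1.85 times the FPKM of FCGBP in shTMPRSS4 libraries, against 0.0434, 0 and 0.0190 in control libraries. FCGBP over CREB3L1 was 0.142, 0.145 and 0.137 in shTMPRSS4 libraries, against 0.0779, 0.0830 and 0.0725 in control libraries. FCGBP over TFF3 went the other way, at 0.154, 0.159 and 0.156 in shTMPRSS4 libraries, against 0.561, 0.376 and 0.341 in control libraries. TFF3 was thus higher relative to both FCGBP and CREB3L1 in each shTMPRSS4 library than in any control library.

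The summed FPKM of the 7 genes was 293, 299.9 and 298 in shTMPRSS4 libraries, against 68.8, 67.8 and 65.5 in control libraries. CREB3L1 held 40.5% to 41.7% of that sum in shTMPRSS4 libraries, against 76.6% to 81.7% in control libraries. TFF3 held 36.6% to 37.4% in shTMPRSS4 libraries, against 11.4% to 16.9% in control libraries. SPINK4 held 10.3% to 10.6% in shTMPRSS4 libraries, against at most 0.276% in control libraries. The share of FCGBP was alike in both, 5.70% to 5.87% in shTMPRSS4 libraries and 5.61% to 6.37% in control libraries.

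**Figure D3:**
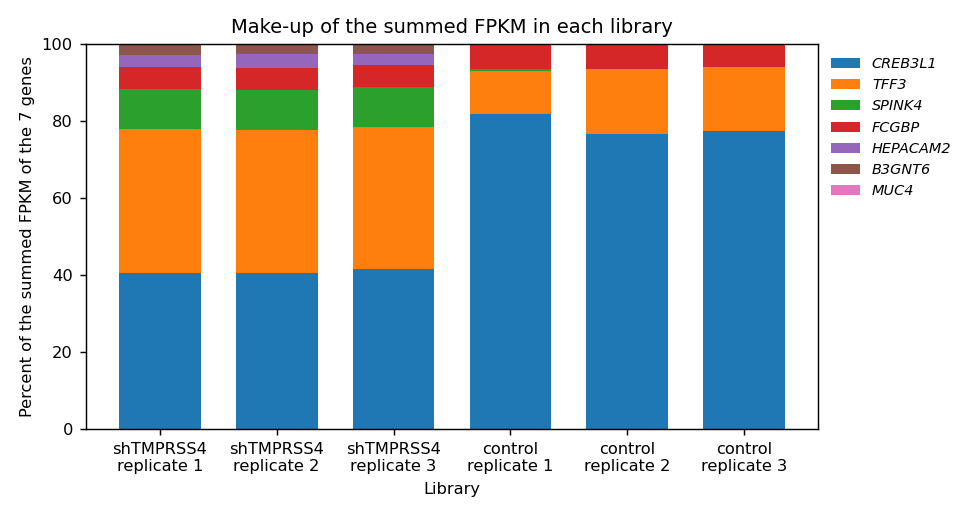
Share (percent) of each gene in the summed FPKM of the 7 genes, per library, with shTMPRSS4 libraries on the left. CREB3L1 makes up 40.5% to 41.7% in shTMPRSS4 libraries against 76.6% to 81.7% in control libraries, and MUC4 is too small to see.

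The profiles over the 6 libraries were compared with those of 217 other listed genes with a group mean of at least 5 FPKM, by the mean absolute difference of centred log2(FPKM + 0.1). DLL1, a Notch ligand, NEUROG3, a transcription factor of endocrine progenitors, and NEURL1, an E3 ubiquitin ligase, were the 3 closest genes to each of SPINK4, HEPACAM2 and B3GNT6. The differences of DLL1 were 0.71, 0.36 and 0.32 for SPINK4, HEPACAM2 and B3GNT6. HEPACAM2 and B3GNT6 lay nearer to each other, at 0.30, than to any of the 217 genes. For TFF3 the closest were AKR1C2 at 0.14, and ATOH1 and TMEM61, both at 0.20. AKR1C2 has close paralogs among which the authors' counting could split reads, so its values are uncertain. For FCGBP they were CACNG4 at 0.05, RAMP1 at 0.11 and HLA-DMB at 0.13.

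For CREB3L1 the 3 closest genes were EIF4EBP2, HGD and ALOX5, all at 0.04. For MUC4 they were GINS3, ATP2A3 and PHF6, all at 0.23. The added 0.1 exceeds every MUC4 control value and cut its log2 fold change from 1.12 to 0.54, so its distances depend on that offset. It also cut SPINK4 from 8.64 to 7.51, HEPACAM2 from 7.59 to 6.01 and B3GNT6 from 7.57 to 5.66, so theirs do too. The profiles share the same 6 libraries and the same selection, so the distances mostly order genes by fold.

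Other genes of mucus production in the table went both ways. The lists behind these counts were chosen with earlier results known, all listed genes were selected on these libraries, and a call means an adjusted p under 0.05 in edgeR's quasi-likelihood test over the 705 listed genes that passed its filter, of which 73.3% were called higher (517 higher and 182 lower, but 167 higher and 192 lower under TMM scaling). The 7 genes were all called higher, and SPINK4, HEPACAM2 and B3GNT6 passed the filter through their shTMPRSS4 counts alone, so nothing is read from this. Genes of the lists that passed it through 1 group alone are marked as such below, and their calls carry no more weight.

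Of 24 secreted mucus components 3 were listed, 1 called higher, 1 called lower and 1 not tested. REG4, a secreted lectin of the intestinal and gastric epithelium, had 25.2, 23.6 and 26.0 FPKM in shTMPRSS4 libraries, against 66.4, 93.5 and 67.2 FPKM in control libraries, a log2 fold change of -1.58 ± 0.17. SPINK1, a Kazal-type trypsin inhibitor also on the acinar list below, averaged 18.9 ± 1.22 FPKM in shTMPRSS4 and 5.79 ± 0.753 FPKM in control libraries. Thus SPINK4 exceeded SPINK1 in each shTMPRSS4 library, while SPINK1 exceeded SPINK4 in each control library. ZG16, a lectin-like goblet cell protein, had 0.1, 0.06 and 0.03 FPKM in shTMPRSS4 libraries and 0 counts in all control libraries and was at least 8.83-fold higher, with the control group set to 3 counts in all.

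Of 39 mucin O-glycan enzymes other than B3GNT6, 2 were listed. ST3GAL1, a sialyltransferase that caps core 1 O-glycans, was called lower, at 65.7 ± 0.796 FPKM in shTMPRSS4 libraries and 144 ± 4.29 FPKM in control libraries. GALNT8, of the family that adds the first sugar, was called higher, at 2.15 ± 0.0819 FPKM in shTMPRSS4 libraries and 0.887 ± 0.219 FPKM in control libraries, though its log2 fold change of 1.30 came to 0.08 under TMM scaling. The authors' annotation term O-glycan processing held 4 listed genes, namely B3GNT6, MUC4, GALNT8 and ST3GAL1, and ST3GAL1 was the 1 lower gene among them. ST3GAL1 was also the most abundant, so the summed FPKM of GALNT8 and ST3GAL1 was 67.0 to 68.7 in shTMPRSS4 libraries and 141 to 149 in control libraries. Of 13 genes sought on a list of other membrane mucins and sialomucins, only MCAM was listed, a cell adhesion molecule with the alias MUC18. MCAM was called lower (16.0 ± 0.959 FPKM in shTMPRSS4 and 32.2 ± 0.25 FPKM in control libraries).

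Of 19 transcription factors of secretory cells 6 were listed and all 6 were called higher, but 2 of them, CBFA2T3 being the one named here, passed the filter through their shTMPRSS4 counts alone. The list also holds regulators of endocrine and tuft cells. ATOH1, the factor that commits intestinal progenitors to the secretory lineage, had 9.83, 10.3 and 9.90 FPKM in shTMPRSS4 libraries, against 0.96, 0.84 and 0.64 FPKM in control libraries. HES6 averaged 197 ± 12.7 FPKM in shTMPRSS4 and 62.5 ± 4.81 FPKM in control libraries, and SOX4 averaged 77.4 ± 4.37 FPKM in shTMPRSS4 and 26.3 ± 1.84 FPKM in control libraries. Under TMM scaling their log2 fold changes were 0.47 for HES6 and 0.37 for SOX4. NEUROG3 averaged 11.6 ± 0.831 FPKM in shTMPRSS4 and 0.247 ± 0.00577 FPKM in control libraries. CBFA2T3, a corepressor, had 1.46, 1.33 and 1.08 FPKM in shTMPRSS4 libraries, against 0.02, 0 and 0 FPKM in control libraries, from 2 control reads in all.

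Of 35 symbols of other goblet cell and mucus granule genes, which hold KIAA1324 also as ELAPOR1, 2 were listed, both called higher. LRRC26, a subunit of a potassium channel of secretory epithelia, averaged 11.1 ± 0.789 FPKM in shTMPRSS4 and 4.14 ± 0.743 FPKM in control libraries, and under TMM scaling its log2 fold change was 0.22 and it was not called (adjusted p = 0.247 in edgeR). KIAA1324, also called ELAPOR1, had 0.64, 0.67 and 0.25 FPKM in shTMPRSS4 libraries, against 0.07, 0 and 0 FPKM in control libraries, from 7 control reads in all, and passed the filter through its shTMPRSS4 counts alone. MUC2, CLCA1, AGR2 and SPDEF, which help to define goblet cells, were on the lists sought above, and none was among the listed genes. Their levels were not analysed here, so the 7 genes cannot be set beside the main gel-forming mucin. The label of the 7 as goblet cell products therefore rests on their known roles, and CREB3L1 and MUC4 are also known from other epithelia.

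**Figure D4:**
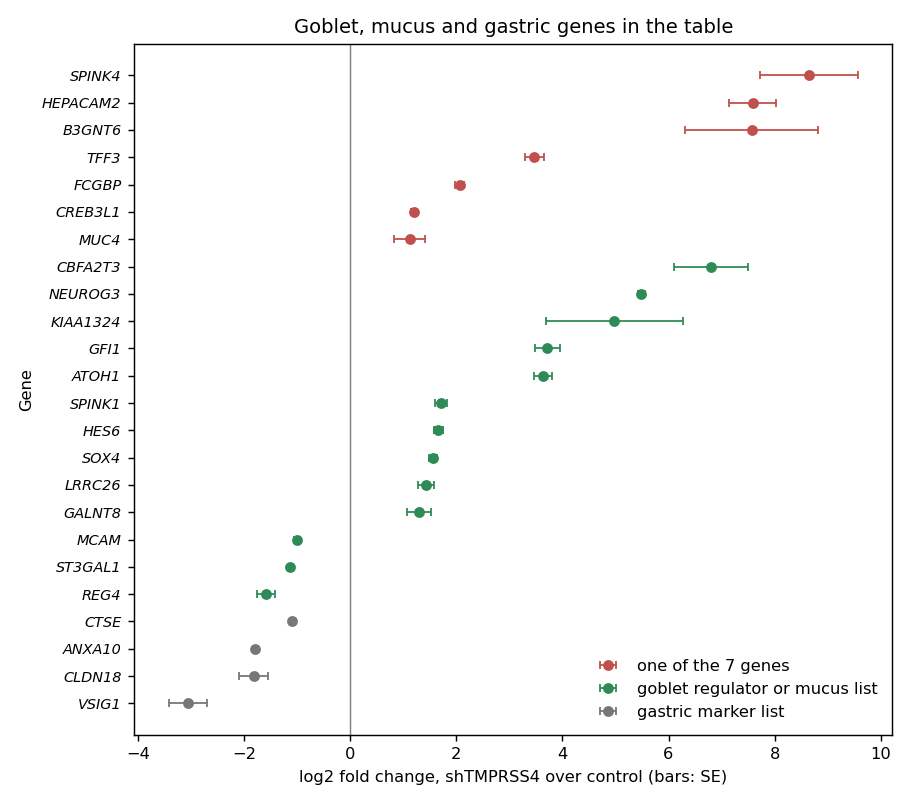
Log2 fold change (points, with SE bars) of shTMPRSS4 over control for the 7 genes (red), other listed genes of the goblet regulator and mucus lists (green) and the gastric marker list (grey), leaving out ZG16, which had 0 control counts. The green genes include NEUROG3, a factor of endocrine progenitors, SPINK1, also on the acinar list, and MCAM, a cell adhesion molecule. REG4, ST3GAL1 and MCAM lie on the lower side, as do the 4 gastric genes.

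Markers of other cell types moved in the same libraries, and their part in the levels of the 7 genes was not tested. Of 12 gastric surface and gland markers 4 were listed (ANXA10, CTSE, VSIG1 and CLDN18), all called lower, with a summed FPKM of 38.8 to 40.2 in shTMPRSS4 libraries and 126 to 129 in control libraries. ANXA10 averaged 30.7 ± 0.818 and CTSE 8.43 ± 0.0265 FPKM in shTMPRSS4 libraries, against 107 ± 1.42 and 18.1 ± 0.201 FPKM in control libraries. VSIG1 averaged 0.31 ± 0.113 and CLDN18 0.0367 ± 0.00577 FPKM in shTMPRSS4 libraries, against 2.5 ± 0.31 and 0.143 ± 0.0416 FPKM in control libraries, and CLDN18 passed the filter through its control counts alone. Of 19 enteroendocrine markers 3 were listed (PAX4, RFX6 and GCG), with 0 counts in all control libraries and a summed FPKM of 2.18 to 2.39 in shTMPRSS4 libraries. PAX4 averaged 1.64 ± 0.0751 FPKM, RFX6 0.51 ± 0.0173 FPKM and GCG 0.15 ± 0.0656 FPKM in shTMPRSS4 libraries. With the control group set to 3 counts in all, PAX4 was at least 105-fold and RFX6 at least 73.1-fold higher. Both passed the filter through their shTMPRSS4 counts alone, so nothing is read from their calls, and GCG was too low to be tested.

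Of 12 tuft cell markers ALOX5 was listed, at 28.0 ± 0.312 FPKM in shTMPRSS4 and 11.7 ± 0.219 FPKM in control libraries, and its log2 fold change came to 0.06 under TMM scaling. Of 16 acinar markers 2 were listed, with a summed FPKM of 21.3 to 23.6 in shTMPRSS4 and 5.53 to 6.99 in control libraries, most of it SPINK1. CELA3A, the other, averaged 3.59 ± 0.65 FPKM in shTMPRSS4 and 0.293 ± 0.0416 FPKM in control libraries, and it has a close paralog, CELA3B, with which it may share reads. CELA3A passed the filter through its shTMPRSS4 counts, with only 1 control library over the cut. No enterocyte, Paneth or pancreatic ductal marker of the 15, 8 and 11 sought was listed, and these were not analysed here.

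The 7 genes lie on 6 chromosomes, and B3GNT6 and CREB3L1 share chromosome 11. Within 500 kb, CREB3L1 had MDK, encoding the growth factor midkine, 59.3 kb away at 94.8 ± 7.54 FPKM in shTMPRSS4 and 40.8 ± 4.68 FPKM in control libraries. It also had F2, encoding prothrombin, 398 kb away at 0.183 ± 0.0737 FPKM in shTMPRSS4 and 0.7 ± 0.368 FPKM in control libraries. FCGBP had DLL3, a Notch ligand family member, 355 kb away at 2.08 ± 0.188 FPKM in shTMPRSS4 and 0.307 ± 0.116 FPKM in control libraries. No other listed gene lay within 500 kb of any of the 7, and no exon of another gene overlapped their exons.

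In the authors' annotation 6 of the 7 carried gene ontology terms, FCGBP being the exception. SPINK4, TFF3 and MUC4 shared the term extracellular region, which 17.3% of the listed genes carried, and HEPACAM2 and B3GNT6 shared Golgi membrane, carried by 3.59%. TFF3 and MUC4 shared maintenance of gastrointestinal epithelium with 2 other listed genes, VSIG1 and SERPINA3, both lower in shTMPRSS4 libraries.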

How the data were processed

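Polyadenylated RNA of 6 AsPC-1 samples was sequenced on an Illumina instrument, per the labels' protocols. Per the submitters' processing notes, the tool named is Bowtie 0.12.2, and 2 builds of the mouse genome (mm9 and mm8) are given, while all 753 identifiers are human and matched GENCODE release 29. How reads were counted and which test the authors ran is not given in the sources used here. No strand-marking step is described. Per the file headers, the authors deposited whole-number counts and FPKM (2 decimals) per library, with group means, a log2 fold change, p-values and FDR. The authors' FDR covered 15117 genes, and the deposited table is a selection from them.

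Relative depth was the median ratio of count to FPKM over 159 genes with at least 200 counts, and its absolute scale came from 12 genes with 1 annotated transcript. Log2 fold changes are differences of mean log2 of depth-scaled counts plus 0.5, with SE over 3 against 3 libraries. The edgeR 4.0.16 quasi-likelihood test (R 4.3.3), with robust estimation and its low-count filter, was fitted to all listed genes with Benjamini-Hochberg adjustment, using recovered depth as library size. It was tested on simulated data. Alternatives used TMM, DESeq2 1.42.0, limma 3.58.1, other pseudocounts and left-out libraries. The members and lists (6 gene lists, 7 marker lists) were chosen with earlier results of these data known. All 7 genes were named, with their 3 closest profiles each and up to 5 genes of each list, those with the highest mean FPKM.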

Additional observations from a re-analysis of the deposited data

How the results depend on the processing

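The log2 fold changes of the 7 genes kept their sign in 89 of 91 recomputations under other scalings, pseudocounts, tools and left-out libraries. The groups of each gene did not overlap at the recovered depth, so pseudocounts, tools and left-out libraries could not reverse a sign. Only the scalings on the listed genes could, so nothing is read from the count of 89. The 2 reversals were MUC4 under TMM scaling (-0.058) and DESeq2 size factors (-0.039) on the listed genes. These scalings assume that most genes do not differ and were computed on selected genes, 73.7% of them higher, and they moved the median of all listed genes by -1.19 and -1.17 (log2), while upper-quartile scaling moved it by -0.72. SPINK4, HEPACAM2, B3GNT6, TFF3 and FCGBP came to 7.72, 6.46, 6.61, 2.28 and 0.87 under TMM, where MUC4 and CREB3L1 were not called. TMM and DESeq2 size factors each left 5 of the 7 called by edgeR, upper-quartile scaling 6, and every other alternative 7. Upper-quartile scaling called 558 listed genes (369 higher, 189 lower), edgeR without its filter 746, DESeq2's Wald test 752 and limma 743. Once FPKM was divided by TMM factors, 5 of the 7 had higher, non-overlapping shTMPRSS4 values, beside 243 of the 753 listed genes. Nothing is read from these counts. Of all listed genes, 359 were called under TMM (167 higher, 192 lower) and 368 under DESeq2 size factors (177 higher, 191 lower), against 699 (517 higher, 182 lower) on recovered depth. Leaving out 1 library at a time gave 697 to 708 called genes, and 7 of 7 here each time. The largest shifts were those of SPINK4 (7.78 to 9.37) and B3GNT6 (6.32 to 8.21), which hold 0 to 8 reads per control library. A larger pseudocount shrank the low genes, with SPINK4 at 4.88 and MUC4 at 0.10 on log2(FPKM + 1). Same-numbered samples did not deviate together (correlations 0.03, 0.05 and -0.05), so the numbers were not taken as pairs. With the replicate number as a block, 682 listed genes and 7 of the 7 were called.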
